A study of Mus musculus with 6 samples.

Results

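Interferon-stimulated genes are transcribed when interferon reaches a cell, and 39 of them are described here in EGFP-positive cells sorted from the mouse calvaria, the bones of the skull vault. The members were given by name as a list of known interferon targets. All 39 were found among the 23284 genes of each library, and 38 had a mean of at least 1 FPKM (fragments scaled for transcript length and library size) over the 6 libraries. Ifi44 did not reach that mean and was not tested. By role the list held 6 sensors of foreign nucleic acid, 10 genes of interferon signalling and its regulation, 17 antiviral effectors and 6 GTPase-type genes. The first 33 are called type I-like here, and the GTPase-type genes are the immunity-related and guanylate-binding GTPases Ifi47, Igtp, Irgm1, Gbp2, Gbp3 and Gbp7.

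Type I interferons bind the receptor chains IFNAR1 and IFNAR2, and the kinases JAK1 and TYK2 then act on STAT proteins, among them STAT2, which joins IRF9 on a promoter element called the ISRE. Interferon-gamma binds its own receptor and acts mainly through another element, the GAS, and the immunity-related and guanylate-binding GTPases are classical targets of that arm. In myeloid cells bacterial lipopolysaccharide (LPS) can start the type I arm through TLR4, and interferons are known to restrain the formation of osteoclasts, the cells that resorb bone.

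All mice were CX3CR1-EGFP reporter animals, in which green fluorescence marks cells with an active fractalkine receptor gene (Cx3cr1), and all had LPS injected at the periosteum of the calvaria. One group was given 10 mg/kg CTLA4-Ig (abatacept, the outer part of CTLA-4 joined to an antibody Fc part, which binds CD80 and CD86), and the control group was given whole human IgG. EGFP-positive cells were sorted after 5 days, and there were 3 libraries per group. Every library had LPS, so no value here measures the response to LPS itself. The labels do not say which animals a library came from, so p-values measure the spread between these libraries.

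The estimated depth ran from 8.63e+06 to 1.06e+07 fragments per library, and the medians of log2(FPKM + 1) over the 10865 genes tested differed by less than 0.01 between libraries. Control IgG library 1 stood apart from the other libraries in many genes: it was the lowest of the 6 in 24.5% of the genes tested and the highest in 24.9%. Cx3cr1, the gene of the sort's reporter, was detected in every library, with 24.1, 16.6 and 26.5 FPKM in CTLA4-Ig libraries 1, 2 and 3 and 12.3, 23.8 and 32.5 FPKM in control libraries 1, 2 and 3, so it too was lowest in control library 1. The differences between the groups, and the spread within them, are therefore also given without it.

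Of the 39 members, 30 had a promoter in the RefSeq promoter table of assembly GRCm38.p6, a window of 250 bases before to 50 bases after the transcription start. The ISRE was searched on both strands as GAAA, 2 bases of any kind and GAAA again, and 18 of the 30 members held a match, against 3.99% of 27025 genes in the table. The share was 13 of 24 among type I-like members and 5 of 6 among GTPase-type members. The GAS letters TTCNNNGAA, also searched on both strands, were found in 9 of the 30 members (30%), against 9.55% of genes in the table. Of 28 ISRE matches in member promoters, 2 overlapped a GAS match. The stretches below come from members of both classes that the results turn on, and each runs from 10 bases before its first ISRE match to 10 bases after its last. They are written 5′ to 3′ in the direction of the gene with the matches in capitals, and a match on the other strand reads TTTC, 2 bases and TTTC.
Isg15 (chr4:156200865-156200906, minus strand): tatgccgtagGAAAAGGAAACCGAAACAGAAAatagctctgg
Ifit1 (chr19:34640775-34640823, plus strand): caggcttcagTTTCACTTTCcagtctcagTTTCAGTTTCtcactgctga
Ifit3 (chr19:34583363-34583426, plus strand): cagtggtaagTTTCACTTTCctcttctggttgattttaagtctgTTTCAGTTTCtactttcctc
Bst2 (chr8:71537577-71537612, minus strand): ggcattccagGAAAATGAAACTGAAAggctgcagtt
Rsad2 (chr12:26456553-26456582, minus strand): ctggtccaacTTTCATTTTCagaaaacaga
Irgm1 (chr11:48871425-48871460, minus strand): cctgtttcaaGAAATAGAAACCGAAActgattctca
Igtp (chr11:58199512-58199541, plus strand): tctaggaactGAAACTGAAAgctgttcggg
Gbp2 (chr3:142620594-142620623, plus strand): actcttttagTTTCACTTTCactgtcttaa
Gbp3 (chr3:142559989-142560024, plus strand): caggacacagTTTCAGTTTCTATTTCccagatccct
Gbp7 (chr3:142530273-142530302, plus strand): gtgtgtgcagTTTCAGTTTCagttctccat

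The matches of Isg15 form 1 run of 3 overlapping copies that starts 78 bases before the transcription start, and those of Irgm1 form a run of 2 copies that starts 30 bases before it. The upstream 250 bases of both genes are given whole, as 1 gene of each class, with the same capitals.
Isg15 upstream (chr4:156200819-156201068, minus strand): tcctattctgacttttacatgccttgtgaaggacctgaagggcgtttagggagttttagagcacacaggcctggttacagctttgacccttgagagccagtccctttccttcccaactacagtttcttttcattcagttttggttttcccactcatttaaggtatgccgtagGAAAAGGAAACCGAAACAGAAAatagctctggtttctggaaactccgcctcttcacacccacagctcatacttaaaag
Irgm1 upstream (chr11:48871421-48871670, minus strand): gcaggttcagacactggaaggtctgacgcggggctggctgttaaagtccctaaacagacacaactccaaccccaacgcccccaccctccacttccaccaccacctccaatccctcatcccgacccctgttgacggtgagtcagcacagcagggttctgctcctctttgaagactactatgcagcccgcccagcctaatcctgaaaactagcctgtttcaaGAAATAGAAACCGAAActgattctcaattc
A match is a description of letters, not a site shown to be used in these cells.

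No member differed between the groups past the threshold, and most members were low in control library 1. None of the 38 members had an adjusted p under 0.05 in limma (Benjamini-Hochberg over all 10865 genes tested), and 0 had an unadjusted p under 0.05. The background was 0% called and 6.07% at an unadjusted p under 0.05. The difference CTLA4-Ig minus control IgG on the log2(FPKM + 1) scale, which understates changes of low genes, was above 0 in 20 of 38 members, against 47.7% of all genes tested. Its median was 0.01 over the members and -0.01 over all genes tested. The groups did not overlap in 1 of the 38 members, Gbp7, which was lower with CTLA4-Ig, against 12.2% of all genes tested, of which 5.69% were lower and 6.50% higher.

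Control IgG library 1 had the lowest value of the 6 libraries in 34 of the 38 members, against 24.5% of all genes tested. The highest value lay in control library 3 for 19 members, in control library 2 for 13, in CTLA4-Ig library 1 for 5 and in CTLA4-Ig library 2 for 1. The 3 CTLA4-Ig libraries all lay between the lowest and the highest control library in 28 of 38 members, against 23.2% of all genes tested. Without control library 1 this was so in 3 of 38, against 6.25% of all genes tested. In bulk libraries such as these, fewer cells of a type and less RNA per cell cannot be told apart.

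**Figure D1:**
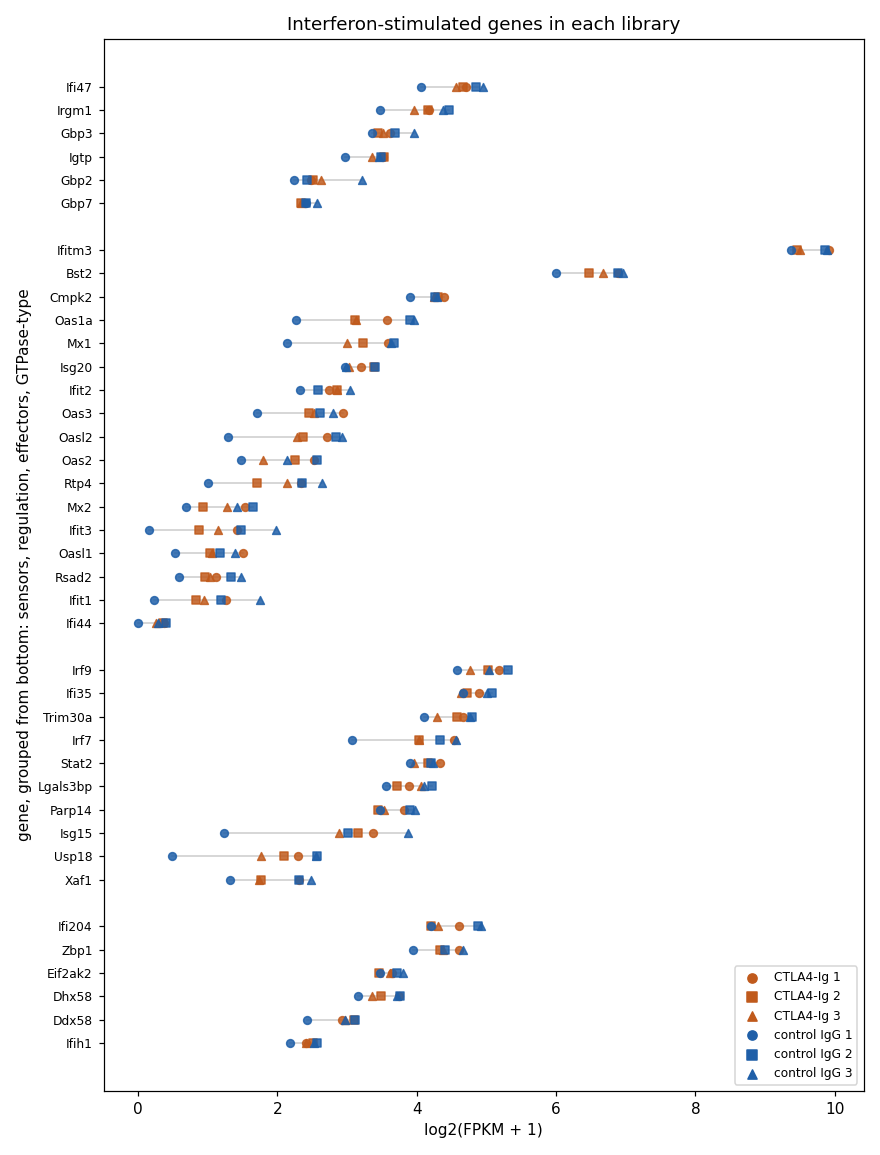
Level of each of the 39 genes as log2(FPKM + 1) on the horizontal axis, with 1 row per gene, 1 point per library (orange for CTLA4-Ig, blue for control IgG, shape for the library number) and a grey line from the lowest to the highest library. The blue circle of control IgG library 1 is the leftmost point in 34 of the 38 genes tested, and Ifitm3 and Bst2 have the highest levels.

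Among the genes of signalling and regulation, the members with the widest control spread were Isg15 and Usp18. Isg15, at chr4:156199424-156200818, encodes a ubiquitin-like protein that is attached to other proteins after interferon. It stood at 9.32, 7.96 and 6.36 FPKM in CTLA4-Ig libraries 1, 2 and 3 and at 1.34, 7.05 and 13.6 FPKM in control libraries 1, 2 and 3. The control group held both the lowest and the highest library, 10.1 times apart, and the CTLA4-Ig libraries lay between them. The difference was 0.43 ± 0.61 (SE, n = 3 per group) on the log2(FPKM + 1) scale (limma adjusted p = 0.936).

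Usp18, at chr6:121245906-121270917, encodes the protease that removes Isg15 from proteins and that also damps signalling at the type I receptor. It had 3.91, 3.27 and 2.40 FPKM with CTLA4-Ig and 0.403, 4.95 and 4.90 FPKM with control IgG. Control libraries 2 and 3 were higher than all 3 CTLA4-Ig libraries, and control library 1 was lower than all of them. The difference was 0.18 ± 0.55 (limma adjusted p = 0.98). From the estimated depth and the longest coding transcript, the value of control library 1 rests on about 6 fragments for Usp18 and about 9 for Isg15, against 45 to 95 in the other libraries for these 2 genes.

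Irf7, at chr7:141263183-141266499, encodes the transcription factor that amplifies the production of type I interferon. It had 22.3, 15.4 and 15.3 FPKM with CTLA4-Ig and 7.42, 19.2 and 22.6 FPKM with control IgG. Control library 1 was again below all others, here with about 147 fragments, so this member's low value does not rest on a few fragments. The difference was 0.21 ± 0.38 (limma adjusted p = 0.958).

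Irf9 and Stat2, which are parts of the ISRE-binding complex, spread less. Irf9 had 35.3, 31.4 and 26.1 FPKM with CTLA4-Ig and 22.8, 38.7 and 31.8 FPKM with control IgG. Stat2 had 19.1, 16.8 and 14.5 FPKM with CTLA4-Ig and 14.0, 17.4 and 17.8 FPKM with control IgG. The groups overlapped in both genes, and the differences were 0.01 ± 0.20 for Irf9 and 0.04 ± 0.13 for Stat2 (limma adjusted p = 0.996 and 0.983). Stat2 overlaps Apof in the annotation, so reads of the pair could be split between them.

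Of the other 5 regulators, Xaf1, which binds the apoptosis inhibitor XIAP, had the widest control range. It stood at 3.94, 2.40 and 2.33 FPKM with CTLA4-Ig and at 1.49, 3.96 and 4.60 FPKM with control IgG. Trim30a, a ubiquitin ligase that restrains Toll-like receptor signalling, had 24.4, 22.8 and 18.6 FPKM with CTLA4-Ig and 16.2, 26.7 and 26.3 FPKM with control IgG. In both genes control libraries 2 and 3 were the highest of the 6 and control library 1 the lowest.

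Lgals3bp, a secreted galectin-binding glycoprotein, had 13.8, 12.2 and 15.7 FPKM with CTLA4-Ig and 10.8, 17.7 and 16.1 FPKM with control IgG. Parp14, an ADP-ribosyltransferase, had 13.1, 9.84 and 10.54 FPKM with CTLA4-Ig and 10.1, 13.9 and 14.7 FPKM with control IgG. Ifi35, an interferon-induced leucine zipper protein, had 28.7, 25.4 and 23.9 FPKM with CTLA4-Ig and 24.2, 32.9 and 31.2 FPKM with control IgG. Parp14 and Ifi35 were the only regulators whose lowest value was not in control library 1, and the groups overlapped in these 3 genes too.

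The 6 sensors kept a narrower range than Isg15, Usp18 or Irf7. Ifih1 (MDA5), a helicase that detects long double-stranded RNA, had 4.34, 4.70 and 4.30 FPKM with CTLA4-Ig and 3.54, 4.95 and 4.78 FPKM with control IgG. Ddx58 (RIG-I), which detects viral RNA ends, had 6.62, 7.57 and 6.82 FPKM with CTLA4-Ig and 4.35, 7.69 and 6.81 FPKM with control IgG. Dhx58 (LGP2), the third helicase of the family, had 12.4, 10.2 and 9.29 FPKM with CTLA4-Ig and 7.91, 12.5 and 12.2 FPKM with control IgG. In all 3 helicase genes the CTLA4-Ig libraries lay within the control range, and control library 1 was the lowest.

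Zbp1, a sensor of Z-form nucleic acid, had 23.4, 19.2 and 19.8 FPKM with CTLA4-Ig and 14.4, 20.3 and 24.4 FPKM with control IgG. Eif2ak2 (PKR), the kinase that halts translation on double-stranded RNA, had 11.5, 9.94 and 11.2 FPKM with CTLA4-Ig and 10.1, 12.1 and 12.9 FPKM with control IgG. Eif2ak2 was the 1 sensor whose lowest library was not control library 1. Ifi204, a DNA-binding protein of the interferon-inducible p200 family, had 23.5, 17.5 and 18.9 FPKM with CTLA4-Ig and 17.4, 28.4 and 29.3 FPKM with control IgG. Its difference of -0.29 ± 0.21 was the lowest among the members (limma adjusted p = 0.894), and genes of its cluster are similar in sequence, so the split of reads between them is uncertain.

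Among the antiviral effectors all 16 tested genes had their lowest value in control library 1. The Ifit genes encode proteins that bind foreign RNA. Ifit1, at chr19:34640889-34650009, had 1.40, 0.788 and 0.932 FPKM with CTLA4-Ig and 0.173, 1.27 and 2.36 FPKM with control IgG. Ifit3, at chr19:34583119-34588982, had 1.68, 0.832 and 1.22 FPKM with CTLA4-Ig and 0.117, 1.78 and 2.93 FPKM with control IgG. The control libraries of Ifit3 were 25.0 times apart, but the low value stands on about 2 fragments, and on about 4 for Ifit1. The differences were -0.04 ± 0.37 for Ifit1 and -0.06 ± 0.45 for Ifit3 (limma adjusted p = 0.994 and 0.991).

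Ifit2 had 5.70, 6.25 and 6.24 FPKM with CTLA4-Ig and 4.01, 5.01 and 7.27 FPKM with control IgG, a control range of 1.81 times on a far larger number of fragments. Ifit3 has a close copy in the mouse genome, and reads shared between copies could be assigned to either.

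The Oas genes encode enzymes, or close relatives of them, that make the oligoadenylates which activate RNase L. Oas1a, at chr5:120896256-120907544, had 10.8, 7.66 and 7.78 FPKM with CTLA4-Ig and 3.81, 14.0 and 14.6 FPKM with control IgG. Control libraries 2 and 3 exceeded every CTLA4-Ig library, and control library 1, with about 64 fragments, was below every one of them. The difference was -0.11 ± 0.45 (limma adjusted p = 0.985). Oasl2 behaved alike, with 5.54, 4.18 and 3.87 FPKM with CTLA4-Ig and 1.43, 6.14 and 6.61 FPKM with control IgG.

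Oas2 had 4.77, 3.78 and 2.45 FPKM with CTLA4-Ig and 1.78, 4.94 and 3.42 FPKM with control IgG. Oas3 had 6.68, 4.48 and 4.73 FPKM with CTLA4-Ig and 2.26, 5.10 and 5.94 FPKM with control IgG. Oasl1 had 1.83, 1.05 and 1.09 FPKM with CTLA4-Ig and 0.438, 1.26 and 1.63 FPKM with control IgG, the lowest on about 8 fragments. CTLA4-Ig library 1 was the highest of the 6 libraries for Oas3 and Oasl1, and control library 2 for Oas2. The difference for Oas3 was 0.27 ± 0.29 (limma adjusted p = 0.92), the second highest among the members after Isg15.

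Mx1 and Mx2 encode dynamin-like GTPases that block viral particles inside the cell, and they are kept among the type I-like genes. Mx1 had 11.0, 8.39 and 6.99 FPKM with CTLA4-Ig and 3.38, 11.7 and 11.4 FPKM with control IgG. Mx2 had 1.90, 0.913 and 1.42 FPKM with CTLA4-Ig and 0.616, 2.14 and 1.69 FPKM with control IgG. Both genes had a control range of 3.47 times between the lowest and the highest library.

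Rsad2 (viperin), which makes a chain-terminating nucleotide, had 1.18, 0.951 and 1.05 FPKM with CTLA4-Ig and 0.499, 1.51 and 1.77 FPKM with control IgG. Cmpk2, a mitochondrial nucleotide kinase whose gene lies beside Rsad2, had 20.02, 18.8 and 18.0 FPKM with CTLA4-Ig and 14.0, 18.1 and 18.6 FPKM with control IgG. The neighbours differed in spread, with a control range of 3.56 times for Rsad2 and 1.33 times for Cmpk2. They also stood at unlike levels, with about 17 and 398 fragments in control library 1, and low genes spread more.

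Bst2 (tetherin), at chr8:71534255-71537472, holds budding viruses on the cell surface and is also a marker of plasmacytoid dendritic cells. It had 117, 88.2 and 100.8 FPKM with CTLA4-Ig and 63.2, 118 and 124 FPKM with control IgG. Ifitm3, at chr7:141009590-141010744, encodes a membrane protein that blocks viral entry and had the highest level of the list, with 966, 703 and 720.5 FPKM with CTLA4-Ig and 661, 930.3 and 943 FPKM with control IgG. Even at these levels, with about 444 and 3973 fragments in control library 1, that library was the lowest for both genes. The differences were 0.06 ± 0.26 for Bst2 and -0.08 ± 0.18 for Ifitm3 (limma adjusted p = 0.986 and 0.972).

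Isg20, an exonuclease of RNA, had 8.19, 9.48 and 7.17 FPKM with CTLA4-Ig and 6.84, 9.58 and 6.90 FPKM with control IgG. Control library 3 was close to control library 1 in this gene, unlike in most members. Rtp4, which overlaps Masp1 in the annotation, had 4.04, 2.26 and 3.38 FPKM with CTLA4-Ig and 0.9999, 4.11 and 5.24 FPKM with control IgG. Ifi44 was listed at 0 in control library 1, at 0.322 and 0.224 FPKM in control libraries 2 and 3 and at 0.297, 0.276 and 0.194 FPKM with CTLA4-Ig. These Ifi44 values correspond to at most about 9 fragments, and no fold was computed.

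The GTPase-type genes encode proteins that attack the membranes around microbes inside the cell. Ifi47, at chr11:49076587-49096987, had 25.1, 24.4 and 22.6 FPKM with CTLA4-Ig and 15.7, 27.8 and 30.1 FPKM with control IgG. Irgm1, at chr11:48865245-48871420, regulates the other immunity-related GTPases and had 17.1, 16.9 and 14.5 FPKM with CTLA4-Ig and 10.1, 21.1 and 19.9 FPKM with control IgG. In both genes the CTLA4-Ig libraries lay close together, inside a control range of 1.92 times for Ifi47 and 2.09 times for Irgm1. The differences were 0.02 ± 0.22 for Ifi47 and -0.01 ± 0.26 for Irgm1 (limma adjusted p = 0.994 and 0.999).

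Igtp had 10.4, 10.6 and 9.26 FPKM with CTLA4-Ig and 6.83, 10.2 and 9.94 FPKM with control IgG. It was the 1 member with its highest value in CTLA4-Ig library 2. The difference was 0.17 ± 0.15 (limma adjusted p = 0.904), and 0.0004 without control library 1.

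The 3 guanylate-binding protein genes lie near each other on chromosome 3. Gbp2 had 4.59, 4.68 and 5.15 FPKM with CTLA4-Ig and 3.74, 4.39 and 8.25 FPKM with control IgG. Gbp3 had 11.2, 9.89 and 10.4 FPKM with CTLA4-Ig and 9.24, 11.9 and 14.6 FPKM with control IgG. Gbp7 had 4.29, 4.07 and 4.04 FPKM with CTLA4-Ig and 4.30, 4.30 and 4.92 FPKM with control IgG. Control library 3 was the highest for all 3 genes, and for Gbp2 it alone stood apart. Gbp7 was the only GTPase-type gene in which control library 1 was not the lowest, and its nearest libraries of the groups were CTLA4-Ig library 1 at 4.29 FPKM and control library 1 at 4.30 FPKM. Its difference was -0.10 ± 0.09 (limma adjusted p = 0.904).

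The libraries were then compared over whole groups of members, as the median deviation of log2(FPKM + 1) from each gene's 6-library mean. Over the 38 members this median was 0.20, -0.06 and -0.07 in CTLA4-Ig libraries 1, 2 and 3 and -0.47, 0.23 and 0.28 in control libraries 1, 2 and 3. Over the antiviral effectors it was -0.65 in control library 1, over signalling genes -0.42, over sensors -0.35 and over GTPase-type genes -0.38. Over all genes tested it was within 0.01 of 0 in every library, which the authors' scaling and the centring on each gene's mean largely set. CTLA4-Ig library 1 was the highest of its group over the members, nearer to control libraries 2 and 3 than to the other CTLA4-Ig libraries.

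**Figure D2:**
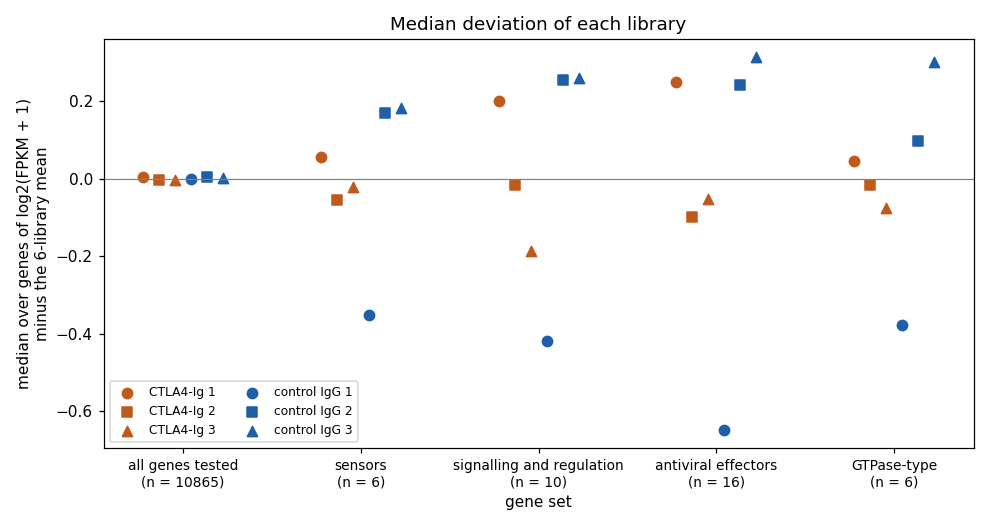
Median over genes of log2(FPKM + 1) minus each gene's 6-library mean (vertical axis) for all genes tested and for the 4 roles (horizontal axis, with the number of genes), with 1 point per library. Control IgG library 1 is the lowest point in every role, at -0.65 for antiviral effectors, while all libraries lie within 0.01 of 0 over all genes tested.

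Both type I-like and GTPase-type genes had their lowest median in control library 1. The median deviations of the 32 type I-like genes were 0.22, -0.06 and -0.08 in CTLA4-Ig libraries 1, 2 and 3 and -0.50, 0.24 and 0.28 in the control libraries. Those of the 6 GTPase-type genes were 0.05, -0.02 and -0.07 in CTLA4-Ig libraries 1, 2 and 3 and -0.38, 0.10 and 0.30 in the control libraries. The type I-like median minus the GTPase-type median was 0.18, -0.04 and -0.003 in CTLA4-Ig libraries 1, 2 and 3 and -0.12, 0.14 and -0.02 in the control libraries. The groups overlapped in this quantity. Type I-like genes stood highest relative to GTPase-type genes in CTLA4-Ig library 1 and control library 2 and lowest in control library 1, and no test was made. The median difference between the groups was 0.03 over type I-like genes, with 18 of 32 above 0, and -0.05 over GTPase-type genes, with 2 of 6 above 0. Without control library 1 the medians were -0.26 and -0.27, and without control library 3 they were 0.18 and 0.16. Under these settings the gap between the classes was narrower and both had the same sign. Without control library 2 the gap was instead wider than with all libraries.

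The spread of a gene was measured as the SD of log2(FPKM + 1) over the 3 libraries of a group. It was larger in the control group in 37 of the 38 members, against 55.3% of all genes tested, and Stat2 was the exception. The median SD of the members was 0.43 in the control group and 0.20 in the CTLA4-Ig group, against 0.11 and 0.10 over all genes tested. This wide control spread rests on control library 1. Over control libraries 2 and 3 alone, an alternative added after seeing the data, the median control SD was 0.0949 for the members and 0.0653 for all genes tested. The SD was then larger in the control group in 12 of 38 members, against 34.3% of all genes tested. With all libraries, for type I-like genes the medians were 0.43 and 0.21, and for GTPase-type genes 0.40 and 0.08. In the CTLA4-Ig group the median of the GTPase-type genes was thus below that of all genes tested and that of the type I-like genes above it. Single genes crossed these lines: Irgm1 had an SD of 0.12 and Ifih1 one of 0.06. The higher type I-like median rested on CTLA4-Ig library 1. Over CTLA4-Ig libraries 2 and 3 alone the medians were 0.0821 for type I-like genes, 0.0779 for GTPase-type genes and 0.0847 for all genes tested. Without CTLA4-Ig library 2 both class medians were above that of all genes tested, and without CTLA4-Ig library 3 the order was as with all libraries.

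Since low genes spread more, the members were also set beside genes of the same level. At a mean of 1 to 5 FPKM the median control SD was 0.58 over 13 members and 0.17 over 2406 genes. At 5 to 20 FPKM it was 0.36 over 17 members and 0.11 over 4173 genes. At 20 FPKM or more it was 0.38 over 8 members and 0.09 over 4286 genes. The median of the members exceeded that of all genes tested in each band. Over control libraries 2 and 3 alone the medians in these bands were 0.13 against 0.11, 0.06 against 0.07 and 0.05 against 0.05. By control SD, 27 of the 38 members ranked at or above the 90th percentile of all genes tested and 19 at or above the 95th, with Isg15 at the 99.3rd and Gbp7 at the 41.1st. Over control libraries 2 and 3 alone, 7 ranked at or above the 90th percentile.

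**Figure D3:**
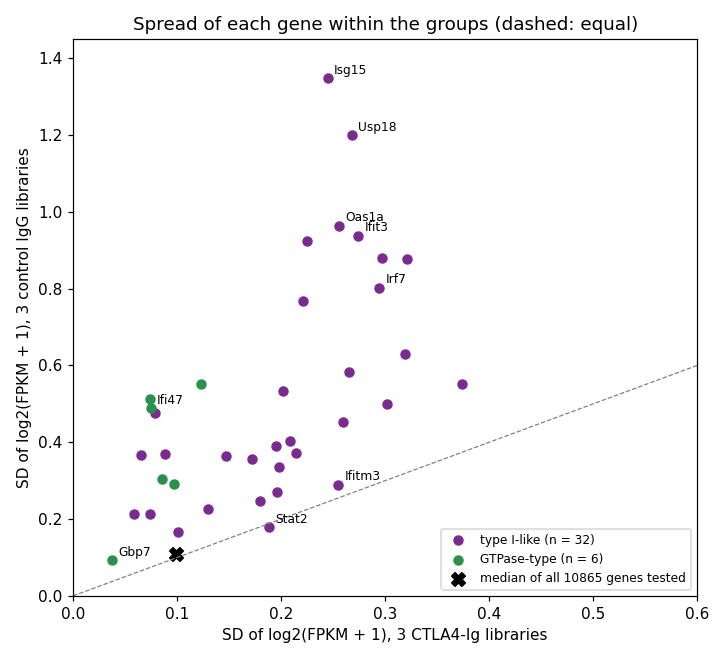
SD of log2(FPKM + 1) over the 3 CTLA4-Ig libraries (horizontal axis) against the SD over the 3 control IgG libraries (vertical axis, on another scale), with 1 point per gene tested, a black cross for the median of all genes tested and a dashed line of equal SD. Of the 38 genes 37 lie above the line, Isg15 and Usp18 are the highest on a control SD that rests on control IgG library 1, and all 6 GTPase-type genes lie at the left with an SD of 0.12 or less in the CTLA4-Ig group.

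The difference between the groups was recomputed without each library in turn. Without control library 1, 4 of the 38 members had a difference above 0, against 46.8% of all genes tested, and the median over the members was -0.26. In limma 11 members then reached an unadjusted p under 0.05, against 7.99% of all genes tested, and 0 had an adjusted p under 0.05, with 0.581 as the lowest. The lowest differences were those of Oas1a at -0.66, Ifit3 at -0.58, Ifi204 at -0.52 and Usp18 at -0.52. Without control library 3 the sign of most members was the opposite: 32 of 38 were above 0, against 48.7% of all genes tested, with a median of 0.18, and 1 reached an unadjusted p under 0.05 in limma, against 5.22%.

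Without control library 2, 30 members were above 0, against 48.1% of all genes tested, with a median of 0.13, and 0 reached an unadjusted p under 0.05 in limma, against 5.13%. Without CTLA4-Ig library 1, 12 members were above 0, against 46.6% of all genes tested, and without CTLA4-Ig library 2 or library 3 it was 23, against 48.3% in both. In 37 of the 38 members the lowest of these differences was the one without control library 1, and Isg20 was the exception. The median over the members was -0.06 without CTLA4-Ig library 1, 0.02 without library 2 and 0.06 without library 3. Compared with all 6 libraries, leaving out control library 1, 2 or 3 turned the sign of 16, 10 and 12 members. Leaving out CTLA4-Ig library 1, 2 or 3 turned fewer, 8, 9 and 3 members. Turned signs were counted in the members only, so no share over all genes tested stands beside them.

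**Figure D4:**
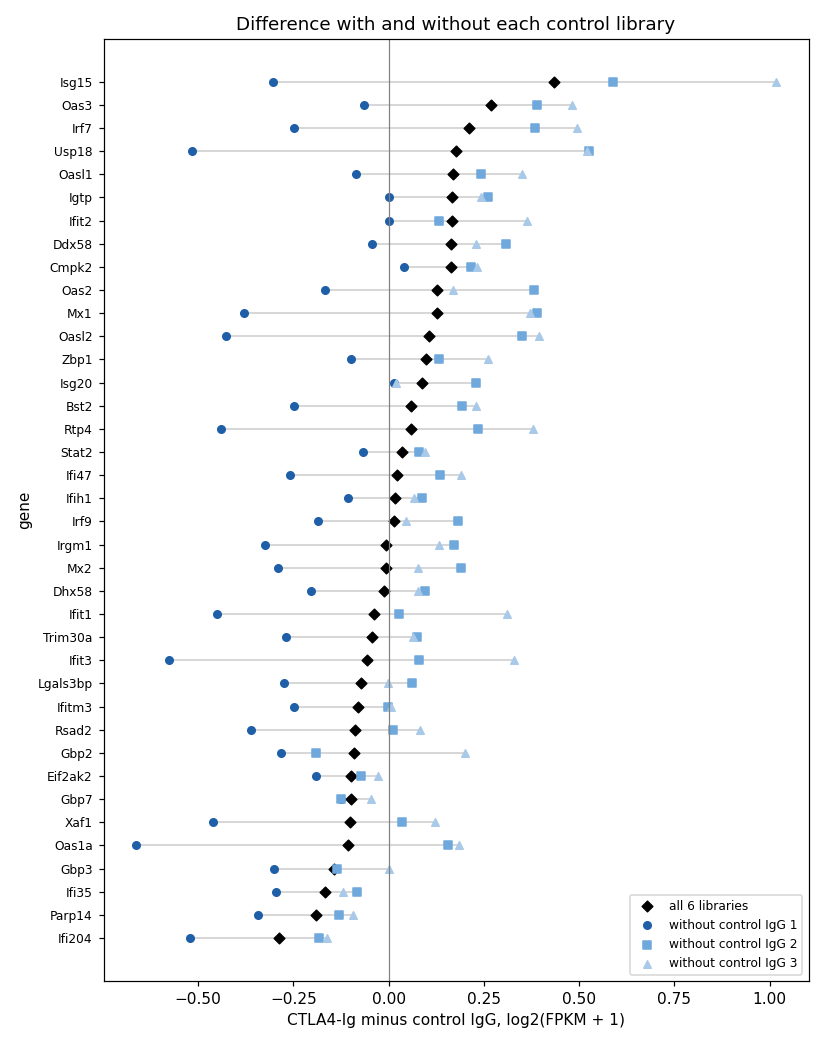
Difference CTLA4-Ig minus control IgG on the log2(FPKM + 1) scale (horizontal axis) for each of the 38 genes tested (rows), with all 6 libraries (black diamonds) and without each control library (blue symbols). Without control IgG library 1, 34 of the 38 genes lie below 0, and without control IgG library 3, 32 lie above 0.

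The spread was also set beside the promoter matches, as a description with no test. The median control range of log2(FPKM + 1) was 0.79 over 18 members with a match, 0.74 over 11 tested members without one and 0.96 over 9 members with no promoter in the table. Control library 1 was the lowest library in 16 of 18, 10 of 11 and 8 of 9 of these members.

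The rest of the pathway was described from lists of its other parts. For the counts in the lists below, 47.7% of all genes tested had a difference above 0. The share of all genes tested that was lowest in control library 1 was 24.5%. At an unadjusted p under 0.05 in limma it was 6.07%, and without overlap of the groups 12.2%. Of 21 interferon ligand genes, 19 were listed at 0 in every library, Ifnb1 among them, and none reached the mean needed for a test. Ifng, the ligand of the interferon-gamma arm, had 0.1002, 0.213 and 0.349 FPKM with CTLA4-Ig and 0.315, 0.0967 and 0.504 FPKM with control IgG, so the groups overlapped near the floor of the measurement.

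The receptor and JAK-STAT genes were expressed in every library. Of 16 tested, 7 had a difference above 0 and 0 were called, none at an unadjusted p under 0.05, and 4 had their lowest value in control library 1. Ifnar1 and Ifnar2, the chains of the type I receptor, had 18.2 to 21.0 and 94.1 to 99.2 FPKM with CTLA4-Ig, against 20.1 to 22.1 and 81.0 to 109.8 FPKM with control IgG. Ifngr1 and Ifngr2, those of the interferon-gamma receptor, had 168 to 192 and 65.8 to 75.3 FPKM with CTLA4-Ig, against 186 to 203 and 70.03 to 77.7 FPKM with control IgG. The kinases Jak1 and Tyk2 had 57.2 to 58.7 and 27.5 to 34.5 FPKM with CTLA4-Ig, against 53.4 to 57.4 and 32.0 to 33.9 FPKM with control IgG. The groups overlapped for all 6 of these genes.

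The groups did not overlap in 1 of these 16 genes, against 12.2% of all genes tested. That gene was Il28ra (Ifnlr1), the specific chain of the interferon-lambda receptor. It had 11.3, 18.1 and 11.1 FPKM with CTLA4-Ig and 10.3, 11.08 and 8.61 FPKM with control IgG. Its difference was 0.37 ± 0.19 (limma adjusted p = 0.853).

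Of 6 interferon regulatory factors outside the list, 3 had a difference above 0, 4 had their lowest value in control library 1 and 0 were called, none at an unadjusted p under 0.05. Irf8, a factor of monocyte and dendritic cell development, had 204.5, 169.7 and 173.9 FPKM with CTLA4-Ig and 127, 185 and 216 FPKM with control IgG. Irf5, which drives inflammatory cytokine genes, had 141, 112 and 113 FPKM with CTLA4-Ig and 127, 132 and 146 FPKM with control IgG. Irf3, which starts Ifnb1 transcription, had 32.4 to 35.6 FPKM with CTLA4-Ig and 31.4 to 35.6 FPKM with control IgG, and Irf1 had 39.05 to 40.9 against 32.96 to 40.9 FPKM. The groups overlapped in these 4 genes.

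Among 16 adaptors, receptors and kinases of nucleic acid and LPS sensing 3 had a difference above 0. Only 3 had their lowest value in control library 1, against 24.5% of all genes tested. In limma 0 were called, with 1 at an unadjusted p under 0.05. That gene was Tlr8, an endosomal receptor, with 22.3, 21.2 and 20.5 FPKM with CTLA4-Ig and 29.2, 24.9 and 25.4 FPKM with control IgG. Tlr8 was also the 1 gene of the 16 whose groups did not overlap, against 12.2% of all genes tested. Its difference was -0.30 ± 0.08 (limma adjusted p = 0.72).

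Of 4 further interferon-induced GTPases tested 3 had a difference above 0 and 3 had their lowest value in control library 1. Irgm2 had 7.03, 6.37 and 6.11 FPKM with CTLA4-Ig and 4.73, 7.95 and 7.04 FPKM with control IgG. Gbp5 had 2.60, 1.62 and 2.35 FPKM with CTLA4-Ig and 2.76, 2.44 and 3.94 FPKM with control IgG. None of the 4 was called in limma, nor at an unadjusted p under 0.05.

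Of 49 other interferon-stimulated genes tested 24 had a difference above 0, 29 had their lowest value in control library 1, 2 had an unadjusted p under 0.05 and 0 were called in limma. The background shares were 6.07% at an unadjusted p under 0.05 and 12.2% without overlap, and the groups did not overlap in 4 of the 49, a smaller share than the background. The Ifit family gene 2010002M12Rik (Ifit1bl2) had 3.08, 4.04 and 2.98 FPKM with CTLA4-Ig and 0.632, 2.08 and 1.53 FPKM with control IgG, a difference of 0.89 ± 0.24 (limma adjusted p = 0.72). The RNA helicase gene Mov10 had 4.28, 4.73 and 4.47 FPKM with CTLA4-Ig and 3.19, 3.68 and 3.44 FPKM with control IgG, a difference of 0.31 ± 0.09 (limma adjusted p = 0.72). Ddx60, a helicase related to RNA sensing, was higher by 0.25 ± 0.13 and the mitochondrial exonuclease gene Pnpt1 lower by the difference -0.13 ± 0.07 (limma adjusted p = 0.853 and 0.851). These 4 genes did not pass the threshold.

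Of 8 interferon-gamma targets of inflammation tested 5 had a difference above 0, 4 had their lowest value in control library 1 and 0 were called, none at an unadjusted p under 0.05. Irf1 and Fcgr1, the high-affinity IgG receptor, had the highest levels. Fcgr1 had 12.996, 9.60 and 6.95 FPKM with CTLA4-Ig and 11.2, 11.8 and 12.0 FPKM with control IgG. It did not share the low control library 1 of the members.

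Markers of several cell types also differed in control library 1. Of 12 plasmacytoid dendritic cell markers, cells known for strong interferon production, 9 had their lowest value there. Bst2, itself a member, was among these 9. The sum without Bst2 was 80.2 FPKM in control library 1 against 167 to 209 FPKM in the other libraries. Among these markers Siglech was slightly lower there, at 16.0 FPKM against 18.6 to 27.7 FPKM elsewhere. Ly6d was lower by more, at 30.2 FPKM against 97.8 to 108 FPKM. All 7 erythroid markers tested were lowest there, with a sum of 15.4 FPKM against 106 to 175 FPKM, and 9 of 10 markers of non-classical monocytes were lowest there, although their sum was 1258 FPKM there and 1212 FPKM in control library 3, against 1336 to 1733 FPKM in the other libraries. The sum of 8 classical monocyte markers was the highest there, at 18997 FPKM against 8077 to 9584 FPKM, most of it from Chi3l3 with 14245 FPKM. Osteoblast and stromal markers summed to 14.0 FPKM there against 23.1 to 32.2 FPKM. The sums of B lineage and T cell markers were also lowest there, at 14.4 and 10.1 FPKM. Those of macrophage, osteoclast and conventional dendritic cell markers were highest there, at 954, 56.6 and 78.8 FPKM. Yet 6 of the 7 conventional dendritic cell markers tested were lowest there. The NK cell sum, 32.2 FPKM there, lay between those of other libraries. The part of these differences in cell content in the low values of interferon-stimulated genes was not tested.

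Of 19 neutrophil markers 15 had a difference above 0, against 47.7% of all genes tested, 9 had an unadjusted p under 0.05 in limma, against 6.07%, and 0 were called. In 9 of the 19 the groups did not overlap, with CTLA4-Ig higher, against 6.50% of all genes tested. The sum of the neutrophil list was 177179 to 244245 FPKM with CTLA4-Ig and 137730 to 156969 FPKM with control IgG. Its median deviation was -0.003, 0.45 and 0.23 in CTLA4-Ig libraries 1, 2 and 3. In control libraries 1, 2 and 3 it was -0.01, -0.15 and -0.34. Of 8 classical monocyte markers 0 had a difference above 0, with a median of -0.38, 1 had an unadjusted p under 0.05 in limma and 0 were called. The groups overlapped in all 8, while they did not overlap in 12.2% of all genes tested. Over this list the median deviation was -0.001, -0.26 and -0.29 in CTLA4-Ig libraries 1, 2 and 3. In control libraries 1, 2 and 3 it was 0.39, 0.12 and -0.09. The part of both lists in the levels of interferon-stimulated genes was not tested. T cell markers were low in every library, with a sum of 10.1 to 17.9 FPKM.

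**Figure D5:**
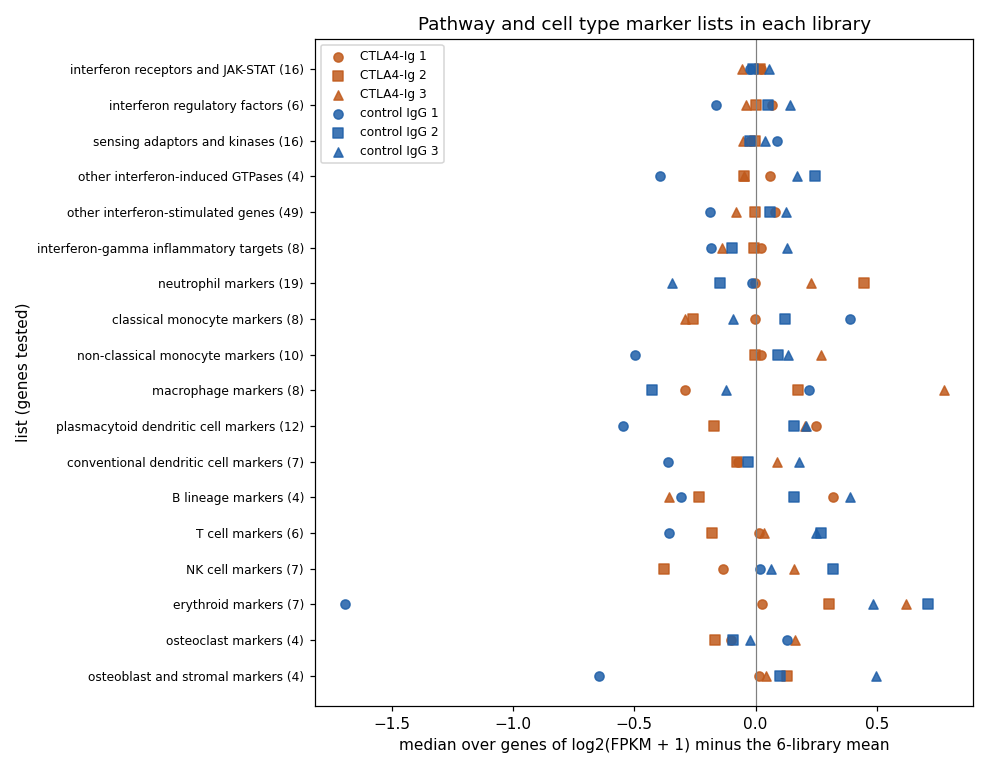
Median over genes of log2(FPKM + 1) minus the 6-library mean (horizontal axis) for the other pathway lists and the cell type marker lists (rows, with the number of genes tested), with 1 point per library. Control IgG library 1 is the lowest point for erythroid markers at -1.69, for plasmacytoid dendritic cell markers at -0.55 and for the other interferon-induced GTPases at -0.39.

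The genes outside the list whose levels followed the library medians of the type I-like members most closely were ranked by Pearson r over the 6 libraries. Among the first 10 of 10827 were Prkcd, BC147527, Pdlim1, Uhrf2, Pkdcc, Cmtm3, Gpr183, Plxnd1 and Cfl2, with r from 0.990 to 0.996. Prkcd, the gene of a protein kinase C, had 214, 205 and 191 FPKM with CTLA4-Ig and 161, 218 and 225 FPKM with control IgG. Gpr183, an oxysterol receptor gene, had 12.2, 10.4 and 10.2 FPKM with CTLA4-Ig and 7.72, 12.3 and 12.5 FPKM with control IgG. None of the 10 stood in another list of the pathway. An r above 0.9 was reached by 2.92% of the genes ranked and by 8 of 45 (17.8%) other interferon-stimulated genes. These 45 leave out the tested genes of that list that were matched through another symbol. These r describe 6 libraries that share control library 1 as the lowest point.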

How the data were processed

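RNA-seq libraries of EGFP-positive calvarial cells were grouped by the treatment label, 3 with CTLA4-Ig and 3 with control IgG. The deposited values are FPKM, made by the authors on the mouse build mm10 with Cuffnorm 2.2.1 after TopHat2 2.0.13, with Bowtie2 2.2.3 and SAMtools 0.1.19 also listed, per the submitters' processing notes. Tool settings, gene models and strand handling were not given in the sources used here. Libraries were made with a stranded kit, per the labels' protocols.

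FPKM tables hold no counts, so no count test was run. Depth was estimated from the spacing of low values over 70 to 85 genes per library, and fragments per gene from that depth and the longest coding transcript, both in the authors' scaling. The limma 3.58.1 package of R 4.3.3 (lmFit, eBayes with a trend, 1 group factor) was applied to log2(FPKM + 1) of genes averaging 1 FPKM or more, with Benjamini-Hochberg adjustment over all genes tested and a threshold of 0.05. The test was checked on simulated data. All 39 members are given by value. From each other pathway list the text names the genes whose groups did not overlap, at most 4 by smallest p, or else the 2 with the highest mean, and always Ifnb1, Ifng, Ifnar1, Ifnar2, Ifngr1, Ifngr2, Jak1, Tyk2, Irf1, Irf3 and Irf8. Some genes that this rule names are not reported here. Marker genes named singly were chosen after their values were seen. The members, roles and lists were chosen with earlier results of these data known. List symbols were matched through RefSeq synonyms, and sequences and coordinates come from RefSeq tables of assembly GRCm38.p6. The remaining steps used pandas 2.3.3, matplotlib 3.10.9 and numpy 2.4.6 in Python 3.11.15.

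Alternatives were a pseudocount of 0.1, no filter, a filter at a mean of 5 FPKM, median-of-ratios scaling, a replicate block, array weights and omission of each library. After seeing the data, the spread within the groups was also recomputed without each library. Same-numbered libraries did not deviate together (r = -0.15, -0.09 and -0.02 for numbers 1, 2 and 3), so the numbers were not taken as pairs.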

Additional observations from a re-analysis of the deposited data

How the results depend on the processing

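The 0 calls among members held under each alternative. Over all genes limma called 0 to 6 genes when 1 library was left out. The median difference over GTPase-type genes then ran from -0.27 without control library 1 to 0.16 without control library 3, and over type I-like genes from -0.26 to 0.18 under the same settings. The spread results changed without control library 1: the median control SD over the members ran from 0.0949 without it to 0.51 without control library 2, members with the larger SD in the control group from 12 to 37, and members within the control range from 3 to 32. Array weights gave a median of -0.15 over the members, -0.16 over type I-like and -0.15 over GTPase-type genes. With these weights 9 of 38 members were above 0, and the share over all genes tested is not given here. They turned 11 signs: Ifi47 -0.15, Ifih1 -0.0735, Irf7 -0.0505, Irf9 -0.13, Stat2 -0.0102, Usp18 -0.27, Mx1 -0.19, Oas2 -0.0755, Oasl2 -0.23, Bst2 -0.13 and Rtp4 -0.24. A pseudocount of 0.1 turned Ifit1 (0.19), Ifit3 (0.27) and Mx2 (0.0339). In control library 1 these genes stood at 0.173, 0.117 and 0.616 FPKM, and a pseudocount of 1 understates changes at such low values. The cause of the turned signs was not tested. Rescaling, both filters and the replicate block turned none of the members they kept, and the filter at a mean of 5 FPKM kept 25. With the replicate block 0 genes were called, 619 had an unadjusted p under 0.05 in limma, and the median over the members was 0.01. The numbers were not taken as pairs, though the correlations of same-numbered libraries cannot exclude a shared batch.

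Leaving out 1 library turned the sign of 30 of the 38 members at least once. Turned signs were not counted over all genes tested, so these counts do not set the members apart from other genes. The differences ran from -0.26 to 0.19 for Ifi47, -0.32 to 0.17 for Irgm1, -0.28 to 0.20 for Gbp2, -0.30 to 0.0023 for Gbp3, -0.11 to 0.0876 for Ifih1, -0.0437 to 0.31 for Ddx58, -0.20 to 0.0950 for Dhx58 and -0.0987 to 0.26 for Zbp1. They ran from -0.25 to 0.50 for Irf7, -0.19 to 0.18 for Irf9, -0.0669 to 0.13 for Stat2, -0.52 to 0.53 for Usp18, -0.30 to 1.02 for Isg15, -0.27 to 0.0602 for Lgals3bp, -0.27 to 0.0750 for Trim30a and -0.46 to 0.12 for Xaf1. Among effectors they ran from -0.45 to 0.31 for Ifit1, -0.58 to 0.33 for Ifit3, -0.0037 to 0.23 for Isg20, -0.38 to 0.39 for Mx1, -0.29 to 0.19 for Mx2, -0.66 to 0.19 for Oas1a, -0.17 to 0.38 for Oas2 and -0.0638 to 0.48 for Oas3. For the others they ran from -0.0849 to 0.35 for Oasl1, -0.43 to 0.40 for Oasl2, -0.36 to 0.0833 for Rsad2, -0.25 to 0.23 for Bst2, -0.25 to 0.0070 for Ifitm3 and -0.44 to 0.38 for Rtp4.

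Depth limits the lowest genes: the estimated fragments of Ifit1, Ifit3, Usp18, Isg15, Oasl1 and Ifi44 in control library 1 were 9 or fewer, so fold ratios against that library are imprecise.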
